A study of Mus musculus with 12 samples.

Results

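Lsp1 and 9 further genes whose products control the actin skeleton of blood cells (Coro1a, Lcp1, Was, Wipf1, Dock2, Arhgdib, Myo1f, Myo1g and Fmnl1) were followed through 12 bone marrow RNA-seq libraries. These 10 genes, of 56953 in the tables, were matched by symbol to Ensembl identifiers. Lsp1 was selected on its low counts in eYFP+ against eYFP- macrophages, so its levels in macrophages are given as a description without a test, and the other 9 genes were picked as actin regulators of blood cells. The study asked how macrophages that arise before birth differ from those made by adult stem cells. Per the study's methods the mice were Rank cre/+;R26.eYFP fl/+, in which Cre is made from the Rank locus and switches on eYFP for good in a cell and its descendants. All libraries came from bone marrow of 8-week-old female C57BL/6J mice. The 4 groups of 3 libraries were F4/80hi macrophages with eYFP (eYFP+, of embryonic origin per the labels), F4/80hi macrophages without it (eYFP-, derived from adult stem cells per the labels), Ly6Clo monocytes and Ly6Chi monocytes. Absence of eYFP marks cells in which Cre did not act and is not by itself proof of an adult origin. The gate shown for bone marrow macrophages also used CD206 and VCAM1. How many mice stand behind a library was not stated, so p-values measure the spread between these libraries, which may be technical.

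Actin filaments push out the leading edge of a crawling blood cell, draw in its rear and shape the cup around a particle that is eaten. WASP, encoded by Was and held by its partner WIP (Wipf1), switches on the Arp2/3 complex, which starts new branches on old filaments. Coronin 1A (Coro1a), L-plastin (Lcp1) and LSP1 bind the filaments, DOCK2 and RhoGDI2 (Arhgdib) set the activity of Rac and related small GTPases, FMNL1 is a formin that elongates filaments, and myosin 1F and 1G link them to the membrane. Most of these proteins are made mainly in blood cells, while other tissues use close relatives such as coronin 1B, T-plastin, N-WASP or RhoGDI1.

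The promoters are shown here because most of these genes moved together between monocytes and macrophages. RefSeq promoter windows (GRCm38.p6, 250 bases before to 50 bases after a start) were found for 9 of the genes, with 15 promoters among them, while Lsp1 had no entry. Capitals mark the letters GAGGAA or GGAAGT on either strand. GAGGAA is the core that PU.1 (Spi1), a regulator of myeloid genes, is known to bind, GGAAGT is a core bound by ETS family factors in general, and the motifs may overlap. The first 3 windows hold both motifs and belong to genes with lower levels in macrophages. The fourth holds both and belongs to a gene that did not pass that test, and the fifth holds neither and belongs to the gene with the largest tested drop.
Fmnl1, chr11:103170888-103171187, plus strand: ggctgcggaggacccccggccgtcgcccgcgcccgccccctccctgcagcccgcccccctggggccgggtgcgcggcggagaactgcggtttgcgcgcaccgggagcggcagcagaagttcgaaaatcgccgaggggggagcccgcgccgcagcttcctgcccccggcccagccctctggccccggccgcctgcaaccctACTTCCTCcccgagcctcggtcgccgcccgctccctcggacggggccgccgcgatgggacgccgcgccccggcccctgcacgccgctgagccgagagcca
Myo1f, chr17:33555457-33555756, plus strand: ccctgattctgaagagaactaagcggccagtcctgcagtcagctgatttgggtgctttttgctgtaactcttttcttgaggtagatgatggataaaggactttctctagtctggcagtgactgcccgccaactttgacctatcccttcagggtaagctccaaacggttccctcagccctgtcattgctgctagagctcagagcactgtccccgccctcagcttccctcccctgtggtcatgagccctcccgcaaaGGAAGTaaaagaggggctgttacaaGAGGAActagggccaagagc
Dock2, chr11:34783856-34784155, minus strand: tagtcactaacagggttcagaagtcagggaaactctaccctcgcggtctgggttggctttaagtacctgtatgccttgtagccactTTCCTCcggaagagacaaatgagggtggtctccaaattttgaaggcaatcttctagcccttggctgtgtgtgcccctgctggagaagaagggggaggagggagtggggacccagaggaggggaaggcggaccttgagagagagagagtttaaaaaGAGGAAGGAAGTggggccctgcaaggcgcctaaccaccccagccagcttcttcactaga
Was, chrX:8090442-8090741, minus strand: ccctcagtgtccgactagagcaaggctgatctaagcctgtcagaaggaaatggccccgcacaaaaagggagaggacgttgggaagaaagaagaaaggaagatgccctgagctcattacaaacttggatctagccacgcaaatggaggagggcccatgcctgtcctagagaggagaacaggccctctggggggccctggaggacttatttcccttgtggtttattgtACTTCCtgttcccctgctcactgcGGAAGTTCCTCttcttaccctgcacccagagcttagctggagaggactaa
Coro1a, chr7:126704767-126705066, minus strand: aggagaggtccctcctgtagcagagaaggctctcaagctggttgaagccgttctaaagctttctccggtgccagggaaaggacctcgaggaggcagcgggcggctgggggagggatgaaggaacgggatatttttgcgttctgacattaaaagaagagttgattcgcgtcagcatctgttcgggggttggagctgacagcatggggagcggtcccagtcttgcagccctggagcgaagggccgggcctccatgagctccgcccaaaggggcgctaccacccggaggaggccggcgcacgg

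GGAAGT was present in 10 of the 15 promoters (66.7%), against 23.8% of the 32851 promoters in the table. GAGGAA was present in 6 (40.0%), against 28.3% of all promoters. Both were present in 5 promoters, of Dock2, Fmnl1, Myo1f, Was and Wipf1 (33.3%, against 8.65% of all). The CArG box, to which serum response factor binds in many muscle and actin genes, was in none of the 15 and in 1.63% of all. These counts describe letters in a window, not binding. Some windows came from the same gene and are not independent, and every window of Wipf1 held GGAAGT. A window of Lcp1, which was not called lower in macrophages, held GGAAGT as well.

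Depth ranged from 26390927 to 48618187 counts per library. Of the 8 macrophage markers, 7 were higher in macrophages than in monocytes by DESeq2, and their summed level was 20155 to 29879 TPM in macrophages against 742 to 3191 TPM in monocytes. Ly6Clo replicate 2 stood apart, with counts for 16434 genes and a median log2 difference of -1.01 from its group over the most GC-rich genes. In eYFP+ replicate 1 that difference was -0.69. Calls that change without these libraries are given beside the result.

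Macrophages held far less RNA of most of these regulators than monocytes. By DESeq2, fitted once over the 12 libraries, 7 of the 9 tested genes were lower in macrophages and none was higher. Of all 22028 genes tested in this comparison 15.3% were lower and 20.7% higher. The median log2 fold change of the 9 genes was -2.32, beside 0.08 over all genes tested. In TPM (counts per gene length, scaled to an equal sum in each library) 6 of these 9 genes had no macrophage library as high as any monocyte library, beside 6.03% of all genes. Leaving out each library in turn gave 7 or 8 called genes. In bulk RNA, fewer cells that hold a transcript and less of it per cell cannot be told apart.

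**Figure D1:**
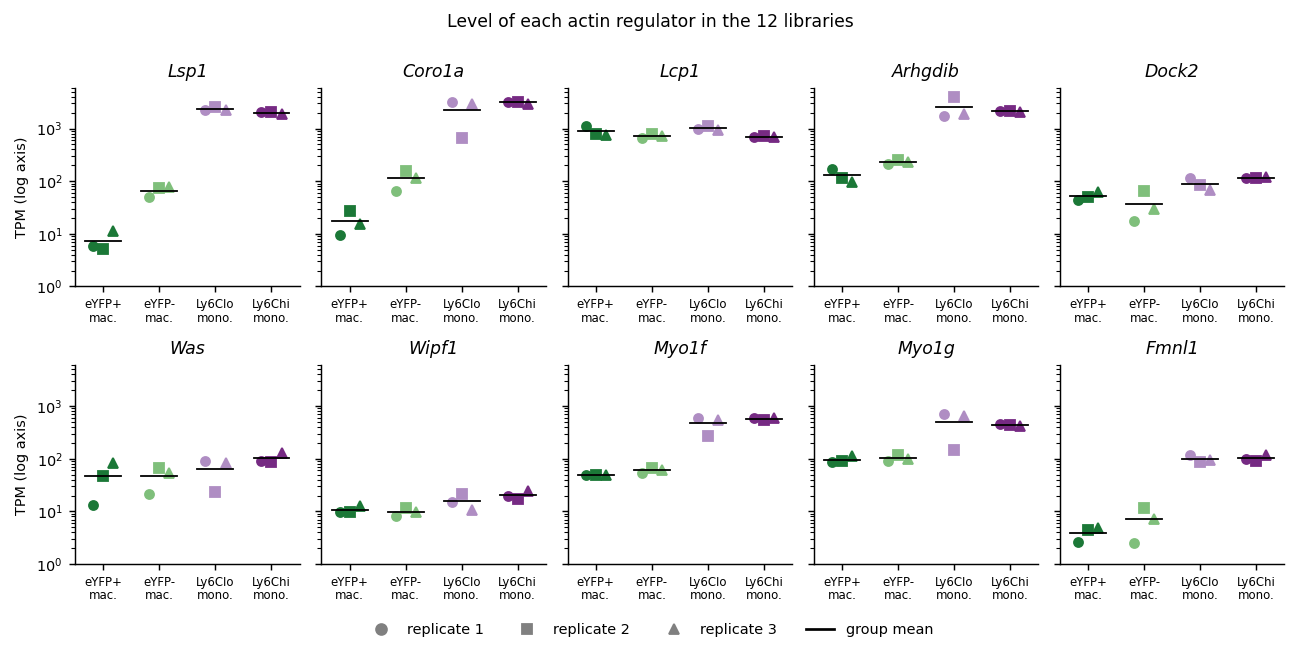
TPM (log axis) of the 10 actin regulators in the 12 libraries, with a panel for each gene, a symbol for each replicate number and a line at each group's mean. Lsp1 falls from 1851 to 2509 TPM in monocytes to 5.15 to 11.4 TPM in eYFP+ macrophages, while Lcp1 stays between 658 and 1131 TPM in all libraries.

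Lsp1, a filament-binding protein and substrate of the kinase MK2, had 2211, 2509 and 2245 TPM in Ly6Clo monocytes and 2029, 2031 and 1851 TPM in Ly6Chi monocytes. In eYFP- macrophages it had 49.8, 72.6 and 76.2 TPM, and in eYFP+ macrophages 5.75, 5.15 and 11.4 TPM. The 4 groups therefore formed a ladder without overlap, Ly6Clo above Ly6Chi monocytes, then eYFP- and then eYFP+ macrophages. Behind the lowest values were 196 to 535 counts in each eYFP+ library, so the transcript was detected there in all 3. The log2 difference of macrophages from monocytes was -6.71 (SE 0.22), a 105-fold lower level, given as a description.

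Coro1a, which binds filaments and is known for its part in the migration and survival of lymphocytes, also stood highest in monocytes, then in eYFP- and then in eYFP+ macrophages, though its monocyte groups overlapped. Its level was 3218, 3253 and 2896 TPM in Ly6Chi monocytes and 3167, 674 and 2902 TPM in Ly6Clo monocytes. In eYFP- macrophages it was 64.0, 159 and 117 TPM, and in eYFP+ macrophages 9.67, 27.04 and 15.6 TPM. Only Ly6Clo replicate 2 was out of step, and it was still above every macrophage library. Coro1a was lower in macrophages by 6.01 on the log2 scale (log2 fold change -6.01, SE 0.38, DESeq2 adjusted p = 1.84e-55), the largest of the tested changes.

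The activator of the Arp2/3 complex and its partner had smaller differences. Was had 91.9, 87.1 and 128 TPM in Ly6Chi monocytes, 88.7, 23.0 and 81.8 TPM in Ly6Clo monocytes, 21.6, 66.4 and 53.3 TPM in eYFP- and 13.2, 46.0 and 83.7 TPM in eYFP+ macrophages. Its groups overlapped, with a wide spread among the eYFP+ libraries. The difference of macrophages from monocytes (log2 fold change -0.92, SE 0.43) did not pass the test (DESeq2 adjusted p = 0.0865). It passed without Ly6Clo replicate 2 (-1.17, adjusted p = 0.0054), without eYFP+ replicate 3 (-1.22, adjusted p = 0.0304), in the fit blocked on replicate number (-1.02, adjusted p = 0.0387) or with a correction for GC content (-1.09, adjusted p = 0.00675). Wipf1 was the least abundant of the 10 genes in monocytes, at 19.3, 17.0 and 24.0 TPM in Ly6Chi and 15.3, 21.0 and 10.4 TPM in Ly6Clo monocytes. It had 8.08, 11.7 and 9.82 TPM in eYFP- and 9.85, 9.58 and 12.7 TPM in eYFP+ macrophages. The ranges overlapped only through Ly6Clo replicate 3, and Wipf1 was called lower in macrophages (-0.90, SE 0.23, DESeq2 adjusted p = 0.000404).

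The regulators of small GTPases differed from each other in the size of the drop. Arhgdib, which keeps small GTPases inactive in the cytosol, had 1711, 4015 and 1869 TPM in Ly6Clo and 2159.8, 2142 and 2040.5 TPM in Ly6Chi monocytes. It had 210.3, 256 and 234 TPM in eYFP- and 174, 115 and 97.6 TPM in eYFP+ macrophages. No macrophage library reached a monocyte library, and Ly6Clo replicate 2 was the highest, where it was the lowest for Coro1a. The log2 fold change was -3.84 (SE 0.29, DESeq2 adjusted p = 3.74e-37). Dock2, which activates Rac downstream of chemokine receptors, had 116, 113 and 119.99 TPM in Ly6Chi and 115, 84.9 and 67.0 TPM in Ly6Clo monocytes. It had 17.4, 65.4 and 29.1 TPM in eYFP- and 44.1, 49.2 and 62.3 TPM in eYFP+ macrophages. The highest macrophage value, eYFP- replicate 2, lay just under the lowest monocyte value, and the change was smaller than that of Arhgdib (-1.34, SE 0.28, DESeq2 adjusted p = 1.58e-05).

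Both class I myosins and the formin were among the genes without overlap. Myo1f had 598, 545 and 591 TPM in Ly6Chi, 601, 269.5 and 538 TPM in Ly6Clo monocytes, 53.4, 66.3 and 60.1 TPM in eYFP- and 49.3, 50.1 and 49.02 TPM in eYFP+ macrophages. Its 3 eYFP+ libraries lay close together, and over both macrophage groups it was lower than in monocytes by 3.35 on the log2 scale (log2 fold change -3.35, SE 0.21, DESeq2 adjusted p = 3.29e-57). Myo1g had 449, 429 and 417 TPM in Ly6Chi, 711, 146 and 641 TPM in Ly6Clo monocytes, 92.5, 116 and 100.3 TPM in eYFP- and 85.0, 92.0 and 111 TPM in eYFP+ macrophages. Ly6Clo held both its highest values and, in replicate 2, the lowest monocyte value, and the log2 fold change was -2.32 (SE 0.32, DESeq2 adjusted p = 8.83e-12). Fmnl1 had 96.8, 91.8 and 115 TPM in Ly6Chi, 119, 87.1 and 95.6 TPM in Ly6Clo monocytes, 2.56, 11.4 and 7.26 TPM in eYFP- and 2.61, 4.35 and 4.90 TPM in eYFP+ macrophages. Monocytes were even and macrophages low and scattered, and the log2 fold change was -4.39 (SE 0.30, DESeq2 adjusted p = 1.11e-45).

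Lcp1, which bundles filaments in parallel, was the exception. It had 1131, 770 and 766 TPM in eYFP+ and 658, 779 and 721 TPM in eYFP- macrophages, 992, 1109 and 949 TPM in Ly6Clo and 692, 717 and 700.4 TPM in Ly6Chi monocytes. The macrophage groups lay within the range of the monocytes but for eYFP+ replicate 1 above and eYFP- replicate 1 below it. The difference of macrophages from monocytes was -0.17 on the log2 scale (SE 0.19, 95% interval -0.55 to 0.21, DESeq2 adjusted p = 0.537).

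With Lcp1 near its monocyte level and most others lower, the make-up of the set differed between cell types. Summed over the 10 genes, monocyte libraries had 8884 to 9732 TPM, and macrophage libraries 1168 to 1605 TPM. Lcp1 made up 7.30% to 12.4% of that sum in monocytes, 48.6% to 55.9% in eYFP- macrophages and 63.1% to 74.2% in eYFP+ macrophages. Coro1a, the largest part in Ly6Chi monocytes at 32.6% to 34.5%, was 5.43% to 9.93% in eYFP- and 0.634% to 2.32% in eYFP+ macrophages. Lsp1 went from 20.8% to 28.1% in monocytes to 4.22% to 5.41% in eYFP- and 0.377% to 0.940% in eYFP+ macrophages.

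**Figure D2:**
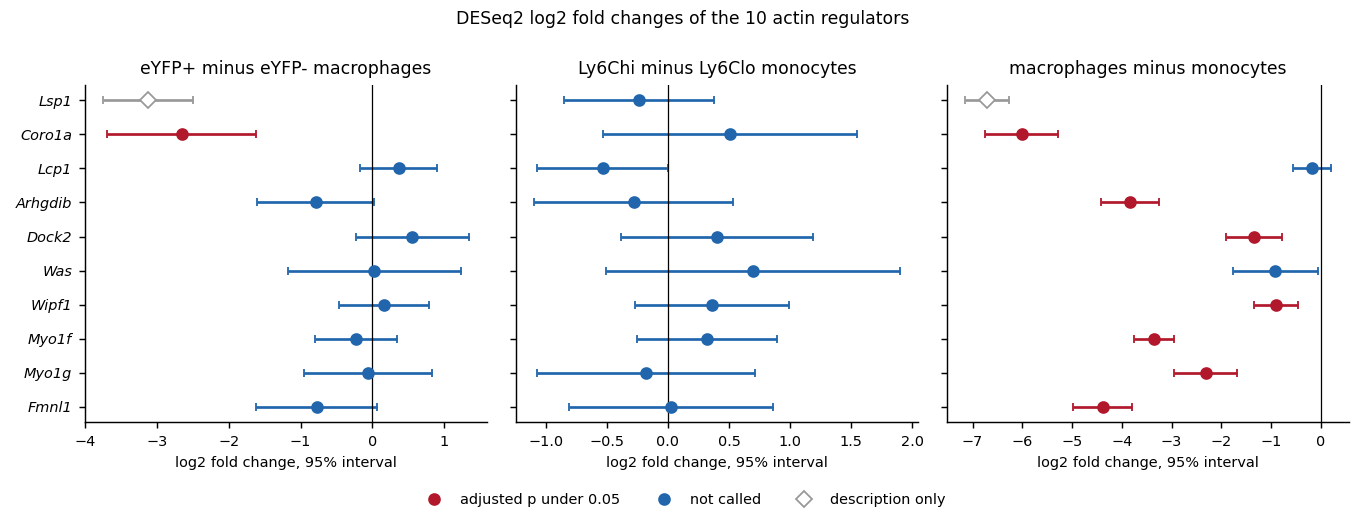
DESeq2 log2 fold changes of the 10 actin regulators with 95% intervals in 3 comparisons, with eYFP+ against eYFP- macrophages on the left, Ly6Chi against Ly6Clo monocytes in the middle and macrophages against monocytes on the right. Filled red points have an adjusted p under 0.05, blue points do not, and the open grey point of Lsp1 is a description. Coro1a is the only red point between the macrophages, none is red between the monocytes, and 7 are red on the right.

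The 4 groups were placed in order of mean TPM for each gene and neighbours were tested. Arhgdib, Myo1f, Myo1g and Fmnl1 had a single step that passed, between monocytes and macrophages, and Coro1a had a further one between the macrophage groups. No gene differed between Ly6Chi and Ly6Clo monocytes by DESeq2. The step from the lower monocyte group to eYFP- macrophages passed for Coro1a (4.43 on the log2 scale, adjusted p = 4.12e-15), Arhgdib (3.30, adjusted p = 7.38e-14), Myo1f (3.07, adjusted p = 7.31e-24), Fmnl1 (3.99, adjusted p = 7.9e-19) and Myo1g (2.19, adjusted p = 1.67e-05). Of all genes tested 11.0% were lower in eYFP- macrophages than in Ly6Clo monocytes and 10.4% lower than in Ly6Chi monocytes. For Dock2 and Wipf1 no neighbours differed beyond their spread (for the step from Ly6Clo monocytes to eYFP+ macrophages, adjusted p = 0.0992 and 0.136), although the groups at the ends of the order did (Ly6Chi monocytes against eYFP- macrophages, adjusted p = 6.21e-05 and 0.00217), as did Ly6Chi monocytes and eYFP+ macrophages (adjusted p = 0.00803 and 0.00914). Of all genes 11.4% were lower in eYFP+ macrophages than in Ly6Clo monocytes and 12.4% lower than in Ly6Chi monocytes. For Was and Lcp1 no step between neighbours passed either. The order of the groups was the same in normalized counts for 9 of the 10 genes, with Lcp1 the exception.

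Between the macrophage groups, Coro1a was lower in eYFP+ cells and the other 8 tested genes did not pass the test. These libraries also enter the comparison with monocytes, and Lsp1 was chosen by its values in them. Lsp1 was lower by 3.13 on the log2 scale (log2 fold change -3.13, SE 0.32), an 8.74-fold lower level, as a description. For Coro1a, with 9.67, 27.04 and 15.6 TPM against 64.0, 159 and 117 TPM, the groups did not overlap and the log2 fold change was -2.66 (SE 0.53, a 6.30-fold lower level, DESeq2 adjusted p = 0.000142). So 1 of 9 genes was called, beside 1.92% of 21195 genes called lower and 2.07% in either direction. The call on Coro1a held in each of 12 fits that left out a library, while edgeR gave -2.68 with an adjusted p of 0.0677 and limma on unfiltered log2(TPM + 1) gave -2.65 with an adjusted p of 0.0942. Limma with its filter on low TPM kept the call (adjusted p = 0.0291 at a pseudocount of 1 and 0.04995 at 0.1). On simulated counts for this comparison DESeq2 also called unchanged genes at more than its nominal rate and edgeR did not.

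In TPM, eYFP+ libraries lay below all eYFP- libraries for 3 of the 9 genes other than Lsp1, namely Coro1a, Arhgdib and Myo1f, beside 9.92% of all genes. For Arhgdib the highest eYFP+ value was 174 TPM and the lowest eYFP- value 210.3 TPM, with a log2 fold change of -0.79 (SE 0.42, 95% interval -1.61 to 0.02, DESeq2 adjusted p = 0.605). For Myo1f the difference was small, -0.23 (95% interval -0.81 to 0.34). Fmnl1 had -0.77 (SE 0.43, adjusted p = 0.667), and without eYFP- replicate 1, the library with its lowest value, it passed at -1.15 (adjusted p = 0.032). Dock2 had 0.55 (SE 0.40, adjusted p = 0.881), and without eYFP- replicate 2 it passed at 1.12 (adjusted p = 0.0267). Lcp1 (0.37), Wipf1 (0.16), Was (0.03) and Myo1g (-0.07) had intervals on both sides of 0. The median of the 9 genes was -0.07, beside 0.05 over all genes.

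Markers of other cells moved with these values. The 8 monocyte markers summed to 62.1 to 165 TPM in eYFP- and 11.8 to 25.2 TPM in eYFP+ macrophages, and 3 of 7 tested were called lower in eYFP+ cells. The 10 T and NK cell markers summed to 62.2 to 127 TPM in eYFP- and 8.65 to 22.9 TPM in eYFP+ macrophages (2 of 10 called lower), and the 8 stem and progenitor markers to 51.6 to 113 and 5.41 to 12.0 TPM (4 of 8 called lower). The 10 neutrophil markers reached 208 to 2550 TPM in eYFP- and 121 to 209 TPM in eYFP+ macrophages (3 of 10 called lower), with the highest sum in eYFP- replicate 2. That library also held the highest eYFP- value of 9 of the 10 regulators, all but Lsp1. The 9 erythroid markers summed to 20953 to 32726 TPM in eYFP- and 8371 to 13385 TPM in eYFP+ macrophages (2 of 9 called lower), and the 7 eosinophil, basophil and mast cell markers to 261 to 1338 and 12.2 to 20.4 TPM (1 of 6 tested called lower). Thus most sums were lower in eYFP+ macrophages, and the 8 proliferation markers were too (257 to 325 and 110.3 to 145 TPM, 3 of 8 called lower). Of all genes of the marker lists Gp1bb of the megakaryocyte list was the only one at 0 TPM in all 3 libraries of a macrophage group, eYFP+. The sums of 8 B cell markers (511 to 612 and 484 to 720 TPM, 1 of 7 tested called lower) and 6 megakaryocyte markers (136 to 185 and 122 to 200.2 TPM, 1 of 5 tested called lower) overlapped. The 8 macrophage markers ran the other way, with sums of 23805 to 29879 TPM in eYFP+ and 20155 to 23520 TPM in eYFP- macrophages and none of the 8 called. The part of other cells in the differences of Lsp1 and Coro1a was not tested.

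Levels in macrophages were also set against the mean in Ly6Chi monocytes. In eYFP+ macrophages Lsp1 had 0.261% to 0.579% and Coro1a 0.310% to 0.866% of the Ly6Chi mean TPM, and in eYFP- macrophages 2.53% to 3.87% and 2.05% to 5.11%. The summed monocyte markers, on the same scale, had 0.0938% to 0.201% in eYFP+ and 0.495% to 1.31% in eYFP- macrophages, below both genes in each group. These markers were themselves far lower in Ly6Clo monocytes, at 637 to 1244 TPM against 12086 to 13387 TPM in Ly6Chi monocytes. They therefore say little about Ly6Clo cells, and the part of either monocyte group was not tested. The neutrophil markers had 0.603% to 1.04% in eYFP+ and 1.04% to 12.8% in eYFP- macrophages. Fmnl1 had 2.52% to 11.3% over both macrophage groups, Arhgdib 4.62% to 12.1%, Myo1f 8.48% to 11.5% and Myo1g 19.7% to 26.9%. Dock2 (14.9% to 56.1%), Wipf1 (40.2% to 63.3%) and Was (12.9% to 81.7%) spread more widely in percentage points, and their ranges overlapped. Lcp1 stood at 93.7% to 161%.

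**Figure D3:**
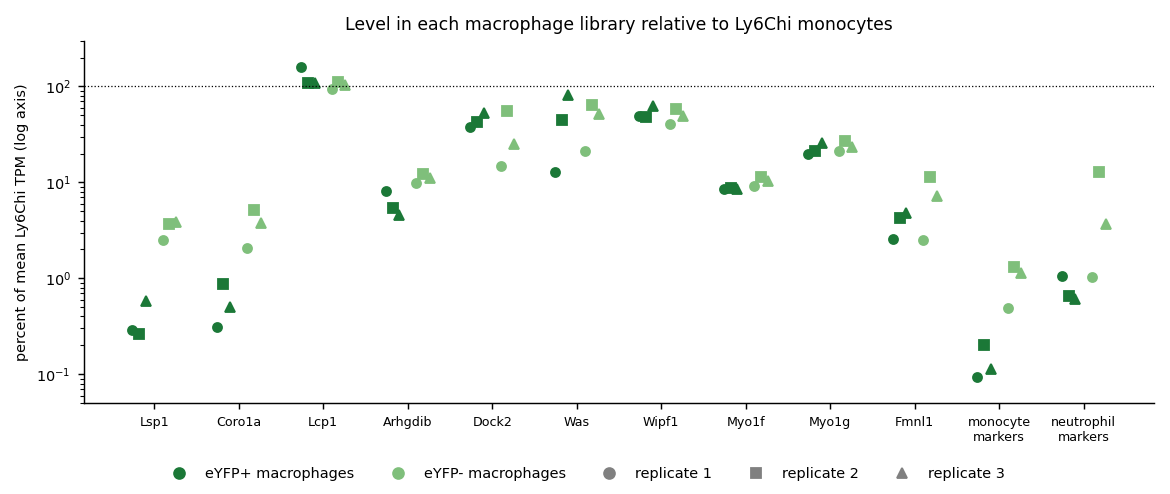
TPM in each macrophage library as percent of the mean of Ly6Chi monocytes (log axis, dotted line at 100) for the 10 actin regulators and the summed monocyte and neutrophil markers. Dark points are eYFP+ and light points eYFP- libraries, with a symbol for each replicate. Lsp1, Coro1a and the monocyte markers are lower in all eYFP+ than in all eYFP- libraries, and Lcp1 lies around the line.

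Between the monocyte groups none of the 10 genes was called by DESeq2 (0 also at an unadjusted p under 0.05), beside 8.82% of 21195 genes (3.74% higher and 5.08% lower in Ly6Chi cells). edgeR called 0, with 0 at an unadjusted p under 0.05, and limma on log2(TPM + 1) called 0, with 1. Lsp1 was tested here, since no library of its choice enters the difference. Those libraries do enter the fit's estimate of its spread, and so its SE and p. The Ly6Chi values of Lsp1 all lay below its Ly6Clo values, with a log2 fold change of -0.24 (SE 0.31, 95% interval -0.85 to 0.38, DESeq2 adjusted p = 0.73). Lcp1 was the other gene without overlap, 692 to 717 TPM against 949 to 1109 TPM, at -0.53 (SE 0.27, adjusted p = 0.242). So 2 of 10 genes were without overlap, both lower in Ly6Chi cells, beside 28.4% of all genes without overlap in either direction.

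The remaining 8 genes had log2 fold changes from -0.28 (Arhgdib) to 0.70 (Was), and each overlapped. Ly6Clo replicate 2 weighed on them. Coro1a, Fmnl1, Was, Myo1f and Myo1g, with transcript GC contents of 58.0%, 57.9%, 55.8%, 54.2% and 50.8%, had their lowest monocyte value in it. Lsp1 (55.7%), Arhgdib (50.1%) and Lcp1 (47.4%) had their highest there. Without that library Myo1g was called lower in Ly6Chi monocytes (-0.60, adjusted p = 0.00412) and the sign of Arhgdib turned, to 0.28. With each library corrected for GC content 0 of the 10 genes were called as well. Without eYFP+ replicate 1, a library of neither group, Lcp1 was called at -0.53 (adjusted p = 0.0355).

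To set each regulator beside its relatives, its share in the summed TPM of its family was compared between the 6 macrophage and 6 monocyte libraries by an exact two-sided permutation test, with p adjusted over 8 families (smallest possible p = 0.00216). The test took the 12 libraries as independent, although eYFP+ and eYFP- libraries of the same number deviated together, so these p-values may be too small. Coro1a made up 74.4% of coronin TPM in monocytes and 6.19% in macrophages (exact p = 0.00216, adjusted 0.00346). Coro1b, the widely made coronin, had a mean of 712 TPM in monocytes and 887 TPM in macrophages, while Coro1a had means of 3122 TPM in Ly6Chi monocytes and 113 and 17.4 TPM in the macrophage groups. Coro1b was uneven, at 84.6 to 1117 TPM among eYFP+ macrophages and 320.5 to 754 TPM among Ly6Clo monocytes. Fmnl1 went from 98.5% to 32.6% of formin-like TPM and Arhgdib from 76.4% to 25.7% of RhoGDI TPM, each with an exact p of 0.00216 (adjusted 0.00346). Fmnl2 had a mean of 9.33 TPM in macrophages, while Fmnl1 still made up 54.2% of the family in eYFP- replicate 2. Arhgdia, the RhoGDI of most tissues, had a mean of 626 TPM in macrophages against 650.3 TPM in monocytes. It was uneven too, at 161 to 818 TPM among eYFP+ macrophages and 81.3 to 786 TPM among Ly6Clo monocytes.

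Smaller shifts were seen for Dock2 (81.6% in monocytes, 68.4% in macrophages) and for Myo1f and Myo1g together (92.5% and 79.4%), again with an exact p of 0.00216 (adjusted 0.00346). Wipf1 (82.0% and 77.1%, exact p = 0.0952, adjusted 0.127) and Was (91.6% and 86.8%, exact p = 0.141, adjusted 0.161) did not pass. Lcp1 was 99.7% of plastin TPM in both cell types (exact p = 0.719). A share depends on the relatives as well, and the Arhgdib share was uneven, at 51.9% in eYFP+ replicate 1 and 10.7% at the lowest, and 98.02% in Ly6Clo replicate 2.

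**Figure D4:**
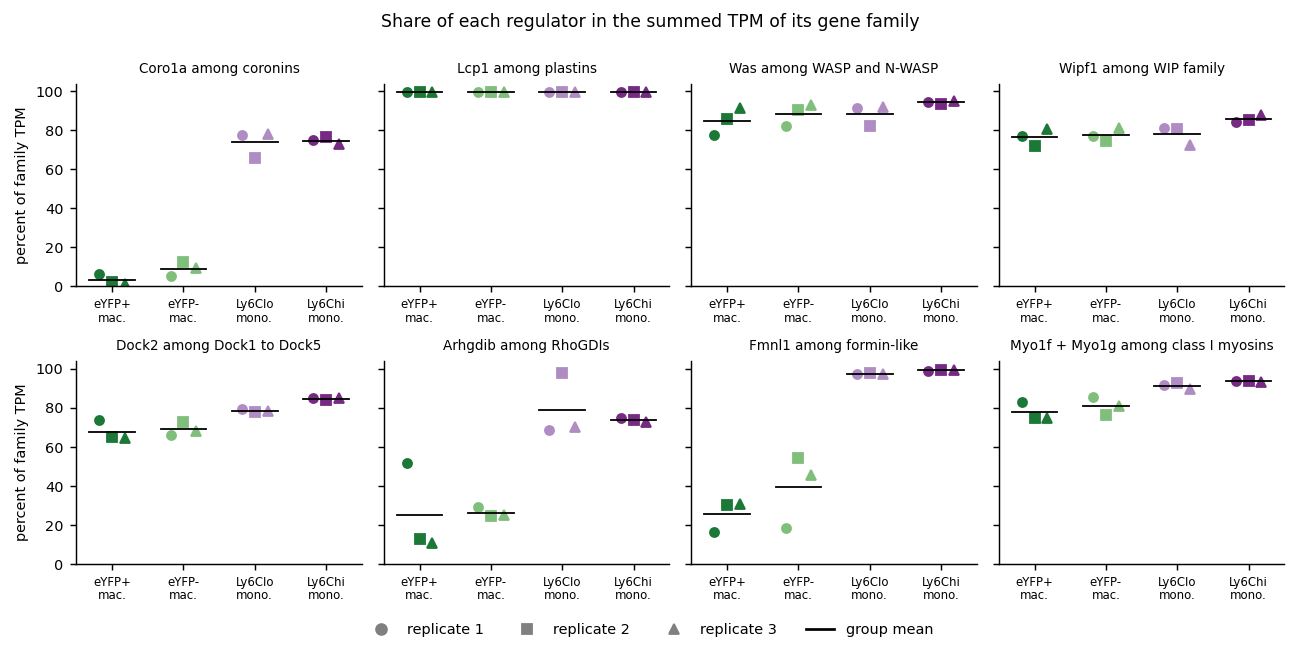
Share of each actin regulator in the summed TPM of its gene family, in percent, for each of the 12 libraries, with a line at the group mean. Coro1a, Arhgdib and Fmnl1 give most of their family's TPM in every monocyte library, and Lcp1 gives nearly all plastin TPM in every library.

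Paralogues and the wider actin machinery were read from lists of genes. Of the paralogues 5 were higher and 6 lower of 23 tested in macrophages against monocytes, with a median log2 fold change of -0.10. Of all genes tested 20.7% were higher and 15.3% lower. Coro2b (5.43, SE 0.50, DESeq2 adjusted p = 8.43e-26) and Fmnl2 (4.38, SE 0.45, adjusted p = 6.41e-21) were higher in macrophages. Dock5 (-2.94) and Myo1h (-4.83) were lower. Myo1e, a myosin 1F relative, was lower in Ly6Chi than in Ly6Clo monocytes by 5.24 on the log2 scale (log2 fold change -5.24, DESeq2 adjusted p = 9.52e-21). It had 0.0442 to 0.317 TPM against 6.42 to 7.26 TPM.

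Between the macrophage groups 2 of 22 tested paralogues were called, beside 2.07% of all genes in either direction. Coro2a had 0.126 to 0.628 TPM in eYFP+ and 0.808 to 3.09 TPM in eYFP- macrophages (log2 fold change -2.46, SE 0.58, DESeq2 adjusted p = 0.00239), without overlap. The call was lost with edgeR (adjusted p = 0.124), in all 3 limma fits (adjusted p = 0.139 to 0.419) and without eYFP- replicate 3 (adjusted p = 0.0708). Myo1e had 8.94 to 16.7 TPM in eYFP+ and 3.40 to 5.13 TPM in eYFP- macrophages (1.58, SE 0.48, adjusted p = 0.0477), the only higher gene of the lists, beside 0.156% of all genes higher. This call was at the threshold. It was lost with edgeR (adjusted p = 0.307), with the replicate block over all 12 libraries (adjusted p = 0.0902), with TMM or total-count scaling and without independent filtering. It was also lost with the GC correction, in 2 of 3 limma fits and in each of 6 fits that left out a macrophage library (adjusted p = 0.0692 to 0.329 in these 6, and 0.309 without eYFP+ replicate 1). With the block on macrophage libraries alone the call was kept. Myo1e is a relative of Myo1f, whose level there differed by -0.23.

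The Arp2/3 complex, the target of WASP, had 7 of 9 subunits called lower in macrophages and none higher, with a median of -0.92. Arpc2 had 319 to 637 TPM in macrophages and 1019 to 1568 TPM in monocytes (-1.21, SE 0.22, DESeq2 adjusted p = 2.28e-07), and Arpc1b, the main form of its subunit in blood cells, followed (-1.17, SE 0.17, adjusted p = 8.86e-11). The WAVE complex, which drives Arp2/3 at the leading edge, had 2 genes lower of 10, Wasf2 (-0.86) and Abi1 (-0.59), and 1 higher. The higher one, Nckap1 (3.13, named after its values were seen), had a mean of 22.6 normalized counts, below the minimum set for naming genes. It was scarce in all groups, at 0.142 to 0.776 TPM in macrophages and 0 to 0.0894 TPM in monocytes. Nckap1l of the same list had group means of 129 to 194 TPM and was not called (-0.175, SE 0.268, DESeq2 adjusted p = 0.67). The call on Abi1 was lost without eYFP+ replicate 3 (-0.55, adjusted p = 0.0683).

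Of the genes for actin monomers, capping and severing 9 were lower and 2 higher of 22 (Twf1, 1.33, and Add1, 0.73). The call on Add1 was lost with the GC correction (adjusted p = 0.0542), with unfiltered limma (adjusted p = 0.0823) and in 5 fits that left out a library, namely eYFP+ replicate 2 or 3, eYFP- replicate 3 or Ly6Chi replicate 1 or 2 (adjusted p = 0.0522 to 0.111). Capg, a filament-capping protein, had 8.19 to 25.1 TPM in macrophages and 80.3 to 994 TPM in monocytes (-4.84, SE 0.30, DESeq2 adjusted p = 1.2e-54), and Tmsb10, which binds monomers, followed (-3.39, SE 0.22, adjusted p = 1.09e-51). Of crosslinkers and filament-binding genes 8 were lower and 4 higher of 22. Tropomyosin 4 (Tpm4, -4.25) and moesin (Msn, -2.14) were lower, and alpha-actinin 1 (Actn1, 4.72) and cortactin (Cttn, 5.47) were higher in macrophages. Of myosin II genes 4 were lower, among them the light chain Myl12b (-1.26), and 1 was higher of 8, Myh10 (2.28), and of the p38-MK2 kinases, to which the LSP1 kinase belongs, Mapkapk2 (-1.36) and Mapkapk3 (-1.46) were lower of 4. These shares stand beside 15.3% of all genes lower and 20.7% higher.

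**Figure D5:**
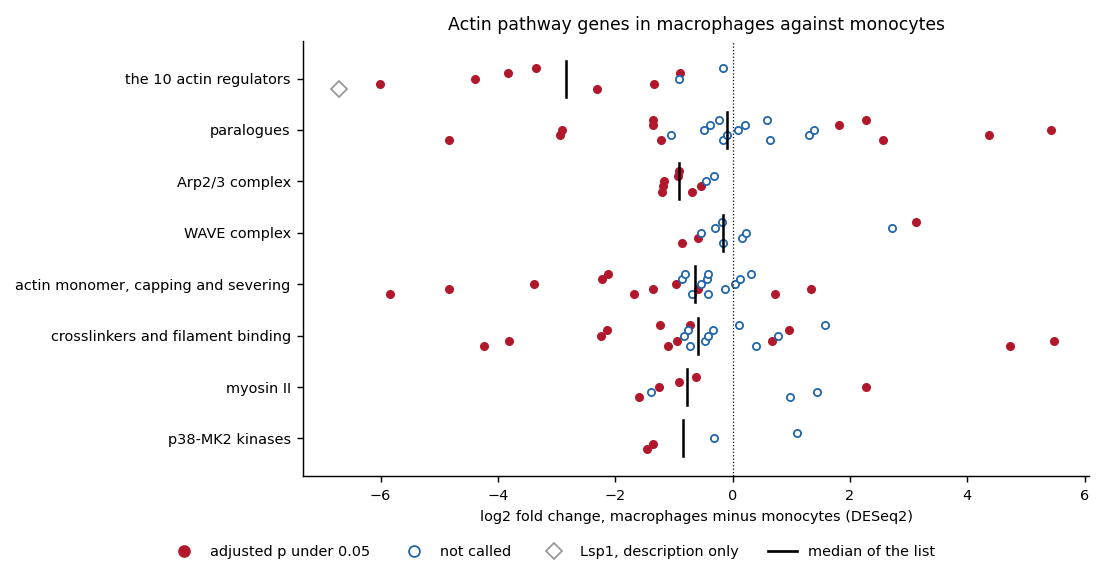
DESeq2 log2 fold changes of macrophages minus monocytes for the 10 actin regulators, their paralogues and 6 further lists of actin genes, with a point for each gene and a bar at each list's median. Filled red points have an adjusted p under 0.05, open blue points do not, and the grey diamond of Lsp1 is a description. The Arp2/3 genes all lie left of 0 within a narrow range, while the crosslinkers and paralogues spread to both sides.

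Between eYFP+ and eYFP- macrophages 1 gene of these 6 further lists was called. Tmsb10 had 52.7 to 67.6 TPM in eYFP+ and 120 to 171 TPM in eYFP- macrophages (-1.13, SE 0.31, DESeq2 adjusted p = 0.0192), and its call was lost with a correction for GC content (adjusted p = 0.858), with edgeR (adjusted p = 0.0991) and with unfiltered limma (adjusted p = 0.0582). It was also lost without eYFP+ replicate 2 or 3 or eYFP- replicate 1 or 3 (adjusted p = 0.0936 to 0.281). None of the Arp2/3, WAVE, crosslinker, myosin II and p38-MK2 genes was called there by DESeq2. Between monocytes 8 of the 75 tested genes of these lists were called (10.7%), beside 8.82% of all genes, and between the macrophage groups 1 of 75 (1.33%), beside 2.07%. Capg (2.88, SE 0.43, adjusted p = 2.85e-09) was higher in Ly6Chi cells, and Abi3 (-1.43), Evl (-0.95) and Myl12b (-0.81) were higher in Ly6Clo cells. Calls of the same contrast on Fscn1 (-4.92), Vcl (2.26) and Myl12b (adjusted p = 0.0525) were lost with edgeR, those on Evl (adjusted p = 0.124), Myl12b (adjusted p = 0.254) and Fscn1 (adjusted p = 0.174) in a fit of the monocyte libraries alone, and that of Tmsb10 (1.27) with the GC correction. Leaving out Ly6Clo replicate 1 or Ly6Chi replicate 3 ended the call on Fscn1 (adjusted p = 0.259 and 0.0513), and each of the 3 limma fits did too. That on Vcl was lost without Ly6Clo replicate 2 (1.89, adjusted p = 0.0958) or 3, without each Ly6Chi library and without eYFP- replicate 3, and also with total-count scaling, the replicate block, no independent filtering or limma at a pseudocount of 0.1 (adjusted p = 0.0565 to 0.109). That on Myl12b was lost without each Ly6Chi library.

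By Pearson r of log2(TPM + 1) with Lsp1 over the 12 libraries, the most similar of 10922 genes were Dpp4 (0.989), Map4k1 (0.987), Napsa (0.986), Ltb4r1 (0.985), Nxpe4 (0.985), Rnase6 (0.985), Mboat1 (0.984) and Icam2 (0.983). Of these 8 genes 6 were also among the first 8 on the deposited variance-stabilised scale. Dpp4, a surface peptidase, had 43.2 to 48.0 TPM in Ly6Clo, 24.6 to 32.6 TPM in Ly6Chi monocytes, 2.83 to 6.38 TPM in eYFP- and 0.276 to 0.686 TPM in eYFP+ macrophages, the same ladder as Lsp1. Among the other regulators Arhgdib (r 0.970, rank 38), Coro1a (0.970, rank 41) and Fmnl1 (0.961, rank 70) came closest, followed by Myo1f (0.944) and Myo1g (0.851). Wipf1 (0.720), Dock2 (0.671) and Was (0.488) were further off, and Lcp1 had 0.06. The points share libraries and the gap between cell types, so these values describe a shared pattern and carry no test.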

How the data were processed

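Per the study's methods the authors sorted the cells, amplified full-length cDNA from polyadenylated RNA and sequenced it in pairs. Reads were cleaned with Trimmomatic, Cutadapt, Rcorrector and, for ribosomal RNA, SortMeRNA, and mapped to GRCm39 with segemehl. The deposited counts are whole read pairs per gene from featureCounts, assigned unambiguously. Whether strand was used is not given in the sources used here, and amplified reads without molecular identifiers are not independent molecules. The authors deposited TPM values and variance-stabilised values close to log2 from DESeq2 as well. The submitters' processing notes name bcl2fastq 2.20.0.422, featureCounts and DESeq2.

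Of 56953 genes 14020 had no count, and 91.4% of identifiers were matched to a symbol. Groups and replicate numbers came from the labels, and all columns were used. The main test of the counts was that of DESeq2 1.42.0, run in R 4.3.3 (median-of-ratios size factors, group as the only factor, Wald tests, Benjamini-Hochberg adjusted p under 0.05 over all genes tested). Log2 fold changes are unshrunken. The members, gene lists and tests were chosen with earlier results of these data known, and the family shares were added after values were seen. Named from each list were genes called between the macrophage groups and, for the other contrasts, up to 2 per direction with the lowest adjusted p and a mean of at least 50 normalized counts.

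Alternatives were edgeR 4.0.16 quasi-likelihood tests, limma 3.58.1 on log2(TPM + 1) or log2(TPM + 0.1) with at least 1 TPM in 3 libraries or unfiltered, scaling by TMM or by total counts, a filter at 10 counts in at least 3 libraries, DESeq2 without independent filtering or without its Cook cutoff, fits on the libraries of a contrast, a correction for transcript GC content, the replicate number as a block and leaving out each library. Libraries of eYFP+ and eYFP- macrophages with the same number deviated together (r 0.456, 0.332 and 0.152 over 2000 genes), so the block is used there as a pairing. That the numbers mark shared mice rests on this correlation and is not stated. The tests were checked on counts simulated with known changes between the macrophage groups. DESeq2 recovered more of the changed genes than edgeR, but a larger share of its calls than the threshold allows fell on unchanged genes, while edgeR called fewer genes of either kind. Family shares and promoters were computed in Python 3.11.15 with SciPy 1.17.1. Some gene lists that were computed are not reported here.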

Additional observations from a re-analysis of the deposited data

How the results depend on the processing

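Depth was high for these genes, and 3 libraries per group set the precision. Between the macrophage groups the count of called regulators was 1, but 0 with edgeR and 0 with limma on unfiltered log2(TPM + 1), and 1 to 2 when libraries were left out, with 2 without eYFP- replicate 1 and 2 without eYFP- replicate 2. Between monocytes it was 0 to 1, and for macrophages against monocytes 7 to 8, when libraries were left out. With the replicate block it was 1, 0 and 8. Over all 12 libraries the block ended the call on Myo1e between the macrophage groups and brought in that on Was against monocytes. With it the call on Vcl between monocytes was lost as well. The block on macrophage libraries alone, where it stands as a pairing, kept the call on Myo1e. For monocytes the same correlations were 0.307, 0.031 and -0.011, which cannot settle whether the numbers pair the libraries. The block there is therefore read only as a shared number.

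Small differences turned direction, and the cause was not tested. Between the macrophage groups Was had 0.03, but -0.073 with total-count scaling, -0.10 with the replicate block, -0.17 with the block on macrophage libraries alone, -0.18 and -0.20 with limma at pseudocounts of 1 and 0.1, -0.18 unfiltered, and -0.60 to 0.45 with a library left out (-0.60 and -0.29 without eYFP+ replicate 3 and eYFP- replicate 1). Between monocytes Fmnl1 had 0.02, but -0.021 with total-count scaling, -0.00279 with the block, -0.62 with the GC correction, -0.50 with both, -0.04 and -0.00833 without Ly6Clo replicate 2 or 3 and -0.086 without Ly6Chi replicate 3. Myo1g had -0.18, but 0.090, 0.091 and 0.090 in the 3 limma fits and 0.11 and 0.07 without Ly6Clo replicate 1 or 3. Arhgdib had -0.28, and -0.53 to 0.28 with a library left out, turning only without Ly6Clo replicate 2. The Lcp1 share differed by -0.02 percentage points, and by -0.0483 to 0.00800 with a library left out (0.00800 and 0.00548 without eYFP+ replicate 1 or Ly6Chi replicate 1).

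Genes called of all tested between the macrophage groups were 439, but 64 with edgeR, 676 on the contrast's libraries, 175 and 220 with limma at a pseudocount of 0.1 or unfiltered, 925 with the block on macrophages alone and 228 to 873 with a library left out (fewest without eYFP- replicate 3, most without Ly6Clo replicate 2). Between monocytes they were 1870, but 829 with edgeR, 1189 on the contrast's libraries, 1219, 1097 and 969 with limma, and 1208 to 2310 with a library left out (1208 and 1228 without Ly6Chi replicate 2 and 1).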
